A study of Homo sapiens with 8 samples.

Results

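The translation initiation factors and eIF2 kinases are described here by the mRNA levels of 50 genes in CAKI1 cells with and without hLcn-2. The members are the rows of the expression table whose gene symbol starts with EIF1 to EIF6, with pseudogenes left out, and they were 50 of 16782 genes. All 50 passed the filter on low values (at least 1 CPM in at least 2 samples), as did 15593 genes in all. CAKI1 is an established human renal carcinoma cell line. Both groups had been serum-starved for 24 h. The treated cells then received hLcn-2, which is lipocalin-2 loaded with iron, at 5 µg/mL over 24 h, and the controls were unstimulated CAKI1 cells. Each group held 4 samples, numbered 1 to 4 in the labels. The sources used here do not say whether the samples of a group came from separate cultures, so p-values measure the spread between these samples. All results are from 1 cell line, and in bulk RNA fewer cells of a type and less RNA per cell cannot be told apart.

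Initiation of translation begins when the GTP-bound factor eIF2 brings the initiator methionyl-tRNA to the small ribosomal subunit. The factors eIF1, eIF1A, eIF3 and eIF5 help this complex to scan for the start codon, while eIF4F, made of the cap-binding protein eIF4E, the scaffold eIF4G and the helicase eIF4A, brings the mRNA. In the integrated stress response, eIF2 kinases phosphorylate the alpha subunit of eIF2, which then blocks its exchange factor eIF2B. Most translation is thereby lowered while that of a few mRNAs, such as ATF4, is favoured. The 4E-BPs bind eIF4E and keep it from eIF4G until mTORC1 phosphorylates them. Phosphorylation was not measured in these libraries, which hold mRNA levels only.

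The libraries read the 3′ end of each transcript and carried unique molecular identifiers (UMI), so that each read stands for 1 molecule. They held between 1501563 reads (control 4) and 13953090 reads (control 1). Levels are normalized counts on a scale of counts per library of common size (CPM), and a gene with 3 reads had 0.211 CPM in control 1 but 1.98 CPM in control 4. Because reads were taken from the 3′ end, the levels of different genes are not compared with each other. Log2 fold changes are differences of mean log2(normalized count + 1), hLcn-2 minus control, so that positive values are higher with hLcn-2 and changes of weakly expressed genes are understated. PAX8, a transcription factor of renal epithelium, lay between 201 and 245 CPM over the 8 samples. Of 11 renal markers CA9 was not among the genes analysed here. The summed level of the other 10 ranged from 2078 to 2617 CPM in controls and from 2218 to 2836 CPM in hLcn-2 samples. VIM alone gave between 1302 and 2181 CPM of this sum. PAX2 lay between 1.32 and 5.29 CPM, and AQP1 at 1.41 CPM or less. Of 5 leukocyte markers CD14 alone was measured, at 1.59 CPM or less, and none of 4 endothelial markers was among the genes analysed here. The summed level of 2 measured markers of 5 fibroblast markers was between 2.47 and 6.58 CPM.

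None of the 50 initiation factor mRNAs passed the test. In limma, 0 members had an adjusted p-value under 0.05 (Benjamini-Hochberg over all genes tested, with an adjusted p-value of 0.9999 or more for each member). An unadjusted p-value under 0.05 was found for 0 of 50 members and for 2.28% of all genes (355 genes). The share of all genes that was called was 0.0%. Controls and hLcn-2 samples of the same number deviated together from their group means, so a second fit took the replicate number as a block. This called 0.282% of all genes (44 genes) and 0 members, and the smallest adjusted p-value of a member was 0.236 (EIF2S2). Unadjusted p-values under 0.05 were found for 7 of 50 members with the block, where the share over all genes was 12.2%. EdgeR on the recovered reads with the block called 1.49% of all genes and 0 members, while an unadjusted p-value under 0.05 was found for 6 of 50 members and for 13.4% of all genes. DESeq2 with the block called 1.87% of the 9244 genes to which it gave an adjusted p-value and 0 of 47 members with one (EIF3C, EIF3L and EIF4E3 had none). Its unadjusted p-value was under 0.05 for 4 of 50 members and for 7.38% of all genes.

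The differences were small in size. Of the members, 26 lay above 0 and 24 below, with a median log2 fold change of 0.019, against 0.00083 for all genes. An absolute log2 fold change below 0.25 was found for 45 of 50 members and for 74.6% of all genes. At a mean of at least 10 CPM, which leaves out genes with few reads, it was 44 of 47 members against 84.0% of 9006 genes. The 95% confidence interval lay within ±1 on the log2 scale for 46 of 50 members. For EIF3C, EIF3L, EIF4EBP1 and EIF5AL1, it reached beyond. With the block, the interval lay within ±0.5 for 42 of 50 members. It left out 0 for the 7 members with an unadjusted p-value under 0.05 in that fit (EIF1, EIF1B, EIF2S2, EIF4B, EIF4G1, EIF5 and EIF5AL1), for example 0.06 to 0.36 in EIF2S2 and −0.31 to −0.01 in EIF4G1, before adjustment for the number of genes. No member had groups that did not overlap, and the share over all genes was also small, at 1.88%. The summed level of all members was 7965 ± 499 CPM in controls and 8168 ± 413 CPM in hLcn-2-treated cells (SD, n = 4), and the ranges, from 7264 to 8350 and from 7582 to 8490, overlapped.

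**Figure D1:**
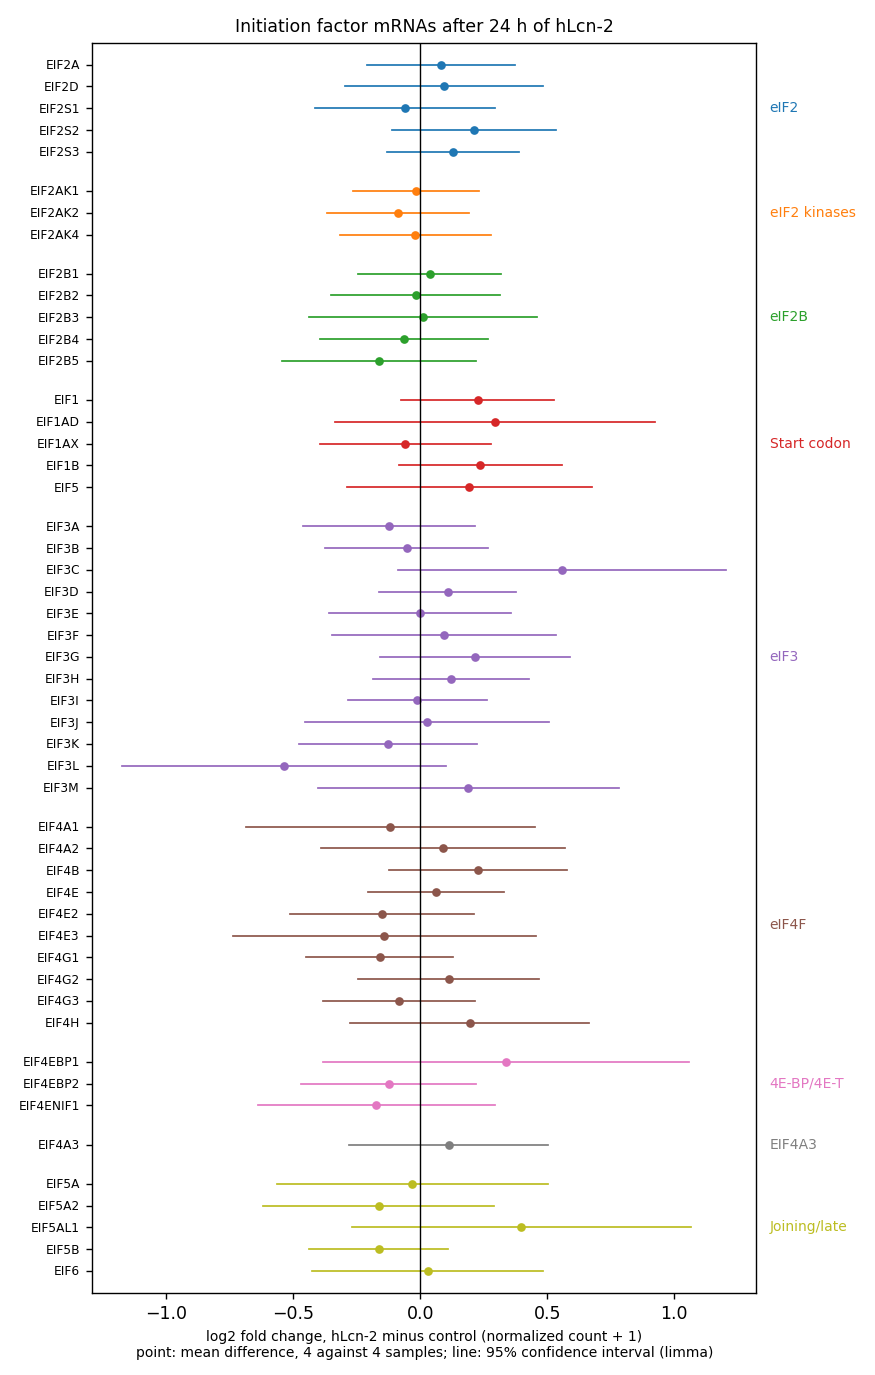
Log2 fold change (hLcn-2 minus control, log2(normalized count + 1)) of the 50 initiation factor and eIF2 kinase mRNAs, ordered by role, where points are differences of means of 4 against 4 samples and lines are 95% confidence intervals from limma without the replicate block. Every interval crosses 0, and the longest are those of EIF4EBP1 and EIF5AL1.

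A direction shared by all same-numbered pairs was seen in 10 members. Higher with hLcn-2 in 4 of 4 pairs were 7 members (EIF1, EIF1B, EIF2S2, EIF2S3, EIF3G, EIF4B and EIF4H), and 9.93% of all genes were. Lower in 4 of 4 pairs were 3 members (EIF3L, EIF4E2 and EIF4G1), and 10.9% of all genes were. EIF3L had few reads and passed the filter only through controls, and without it there were 2 such members.

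The 3 subunits of eIF2 were each measured with at least 119 reads per library. EIF2S1 encodes the alpha subunit, which carries the serine that the kinases phosphorylate (chr14:67360328-67386516, plus strand, GRCh38, 8 exons). It had 90.6, 97.6, 64.3 and 78.4 CPM in controls 1 to 4 and 84.3, 90.6, 66.6 and 74.1 CPM in hLcn-2 samples 1 to 4. The levels of the 2 groups overlapped over most of their range, with means of 82.7 ± 14.6 CPM in controls and 78.9 ± 10.6 CPM in hLcn-2-treated cells (SD, n = 4). The log2 fold change was −0.06, with a 95% confidence interval of −0.41 to 0.29, which is between 0.752 and 1.23 times the control level. Without control 2 it was 0.02, so that no direction can be given. The promoter of EIF2S1 is shown because this is the subunit on which the stress response turns (RefSeq, GRCh38.p14, the 250 bases before the start, chr14:67360078-67360327, plus strand), and none of the 3 motifs searched in promoters matched it.
EIF2S1: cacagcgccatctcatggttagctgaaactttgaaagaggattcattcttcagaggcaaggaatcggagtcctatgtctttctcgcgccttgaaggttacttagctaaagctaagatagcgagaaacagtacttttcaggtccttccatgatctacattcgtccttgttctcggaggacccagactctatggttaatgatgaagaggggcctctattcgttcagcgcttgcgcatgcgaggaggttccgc

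EIF2S2 encodes the beta subunit, which holds eIF5 and eIF2B (chr20:34088309-34112243, minus strand, 9 exons). It had 417, 429, 319 and 453 CPM in controls 1 to 4 and 488, 474, 386 and 522 CPM in hLcn-2 samples 1 to 4. All 4 pairs were higher with hLcn-2, by 0.23, 0.14, 0.28 and 0.20 on the log2 scale, although the groups overlapped because control 3 and hLcn-2 sample 3 were both the lowest of their group. The mean was 404 ± 59.0 CPM in controls and 467 ± 57.8 CPM in hLcn-2-treated cells (SD, n = 4). The log2 fold change was 0.21 (SE 0.15, interval −0.11 to 0.54), and limma with the replicate block gave it an adjusted p-value of 0.236, the smallest of all members. Its two-sided exact permutation p-value, from a test that leaves the pairs out of account, was 0.229. The log2 fold change was 0.10 without control 3 and 0.30 without hLcn-2 sample 3. EIF2S3, the gamma subunit that binds GTP and the initiator tRNA, had 130.4, 112, 138 and 129.7 CPM in controls 1 to 4 and 136, 134, 139 and 147 CPM in hLcn-2 samples 1 to 4. It was also higher in each pair, by 0.06, 0.26, 0.01 and 0.18, with a log2 fold change of 0.13 (interval −0.13 to 0.39), which was 0.07 without control 2. The exact permutation p-value was 0.0857, and no member had a smaller one, where 0.0286 is the smallest that 70 regroupings can give. The alternative factors EIF2A, a protein distinct from the eIF2 alpha subunit, and EIF2D, which can bring tRNA to the ribosome without eIF2, had log2 fold changes of 0.08 and 0.09. As a group, 4 of these 5 genes lay above 0 and their summed level was 741 ± 61.2 CPM in controls and 820.3 ± 55.2 CPM in hLcn-2-treated cells.

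The 3 eIF2 kinases analysed here had log2 fold changes between −0.09 and −0.02. EIF2AK1 (HRI) is inhibited by heme and activated when heme or iron is short. It had 183, 173, 173 and 189 CPM in controls 1 to 4 and 192, 177, 179 and 163 CPM in hLcn-2 samples 1 to 4. Pairs 1 to 3 lay slightly above 0 and pair 4 below (0.07, 0.04, 0.05 and −0.21), which left a log2 fold change of −0.02 (interval −0.26 to 0.23). EIF2AK2 (PKR), which senses double-stranded RNA and is itself an interferon-inducible gene, had 154, 193, 157 and 166 CPM in controls 1 to 4 and 154, 177, 140.2 and 159 CPM in hLcn-2 samples 1 to 4. Its pairs differed by 0.01, −0.13, −0.16 and −0.06, and the log2 fold change was −0.09 (interval −0.37 to 0.19). EIF2AK4 (GCN2), which senses uncharged tRNA when amino acids run short, had 97.8, 113, 84.8 and 85.6 CPM in controls 1 to 4 and 91.6, 103, 84.9 and 95.2 CPM in hLcn-2 samples 1 to 4. Here both samples of number 2 were the highest of their groups, and the log2 fold change was −0.02 (interval −0.32 to 0.28). For the 3 kinases a change of mRNA by more than 0.37 on the log2 scale in either direction lay outside each interval, and the exact permutation p-values were 0.80, 0.457 and 0.886. The sign for EIF2AK1 and EIF2AK4 depended on which sample was left out, between −0.05 and 0.02 and between −0.07 and 0.07. The summed level of the kinases was 442 ± 26.6 CPM in controls and 429 ± 22.8 CPM in hLcn-2-treated cells.

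The subunits of eIF2B, the exchange factor that reloads eIF2 with GTP, were measured for all 5 genes. EIF2B1, the alpha subunit of the regulatory part, had 59.4, 54.3, 65.6 and 55.3 CPM in controls 1 to 4 and 61.6, 59.0, 55.8 and 64.1 CPM in hLcn-2 samples 1 to 4. EIF2B2, the beta subunit of this part, had 48.5, 46.3, 34.7 and 39.5 CPM in controls 1 to 4 and 40.5, 45.5, 38.0 and 41.7 CPM in hLcn-2 samples 1 to 4. EIF2B4, its delta subunit, had 35.7, 34.6, 33.0 and 40.2 CPM in controls 1 to 4 and 29.9, 33.5, 33.1 and 40.9 CPM in hLcn-2 samples 1 to 4. In none of these 3 genes did the pairs share a direction. EIF2B3, the gamma subunit of the catalytic part, had 23.7, 24.8, 15.7 and 25.7 CPM in controls 1 to 4 and 19.5, 25.6, 18.3 and 26.7 CPM in hLcn-2 samples 1 to 4. EIF2B5, the epsilon subunit that holds the exchange activity, had 31.8, 31.0, 25.6 and 30.9 CPM in controls 1 to 4 and 34.4, 27.2, 22.2 and 23.5 CPM in hLcn-2 samples 1 to 4. EIF2B5 was lower with hLcn-2 in pairs 2, 3 and 4 and higher in pair 1 (0.11, −0.18, −0.19 and −0.38), with the lowest log2 fold change of the complex (−0.16, interval −0.54 to 0.22). The other 4 ranged from −0.07 (EIF2B4) to 0.04 (EIF2B1). For EIF2B2 and EIF2B3 the sign changed when single samples were left out. The summed level was 189 ± 10.4 CPM in controls and 185 ± 12.8 CPM in hLcn-2-treated cells. The last 500 nt of EIF2B1 and EIF2B2, where these libraries are read, lie opposite to exons of other genes (DDX55 and ENSG00000279594), and the sources used here do not state whether reads were counted by strand.

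**Figure D2:**
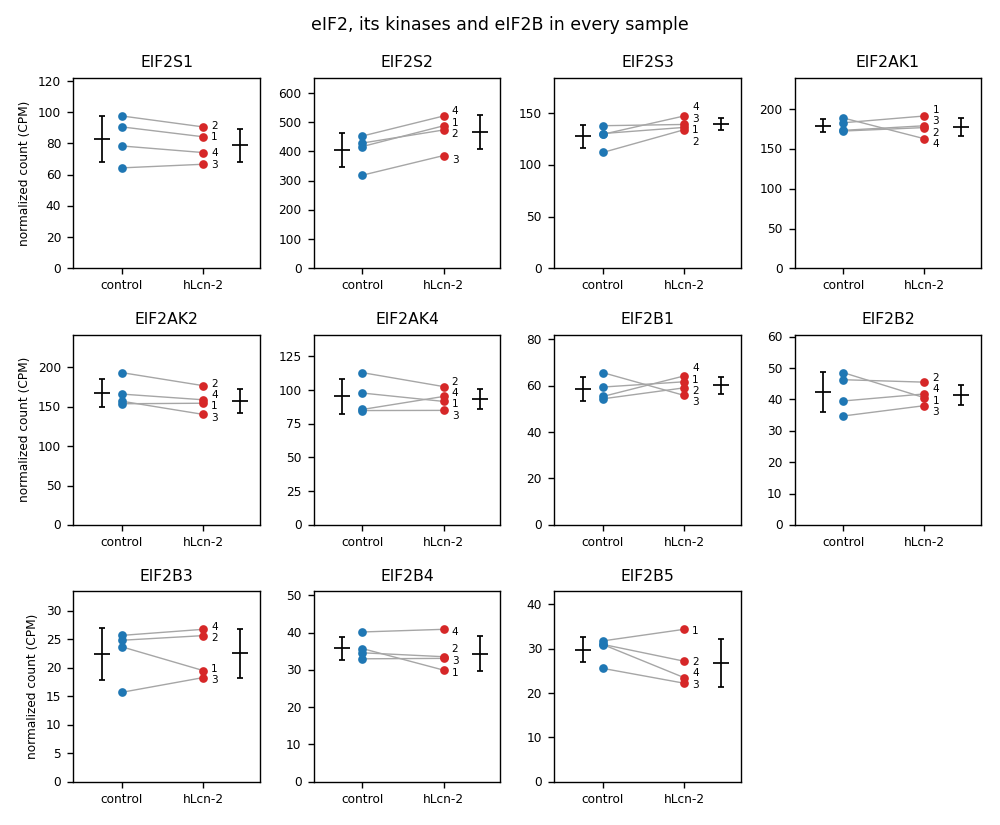
Normalized count (CPM, y axis from 0) of the eIF2 subunits, the 3 eIF2 kinases and the eIF2B subunits in each of 4 control samples (blue) and 4 hLcn-2 samples (red), where lines join samples of the same number, given beside the red points, and bars show mean and SD. EIF2S2 and EIF2S3 are higher in all 4 pairs, the lines of the kinases and of eIF2B run in both directions, and in no panel are the groups apart.

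Of the 5 genes grouped under start codon selection and scanning, 4 lay above 0 and none passed the test. EIF1, which keeps the scanning ribosome open until a start codon is met, had 908, 849.8, 1040.0 and 775 CPM in controls 1 to 4 and 922, 1080.5, 1169 and 1000.2 CPM in hLcn-2 samples 1 to 4. Every pair was higher with hLcn-2, by 0.02, 0.35, 0.17 and 0.37, and the means were 893 ± 112 CPM in controls and 1043 ± 106 CPM in hLcn-2-treated cells (SD, n = 4). The log2 fold change was 0.23 (SE 0.14, interval −0.08 to 0.53), and its adjusted p-value was 0.265 in limma and 0.143 in edgeR, both with the block. EIF1B, a close paralog of EIF1, had 31.6, 34.9, 35.8 and 30.3 CPM in controls 1 to 4 and 40.5, 42.5, 41.5 and 32.8 CPM in hLcn-2 samples 1 to 4. It was likewise higher in each pair, by 0.35, 0.28, 0.21 and 0.11, at a log2 fold change of 0.24 (interval −0.09 to 0.56), and the groups overlapped because hLcn-2 sample 4 lay below controls 2 and 3. EIF5, which makes eIF2 hydrolyse its GTP at the start codon, had 365, 386, 191 and 288 CPM in controls 1 to 4 and 394, 377, 249 and 360.3 CPM in hLcn-2 samples 1 to 4. Both samples of number 3 were the lowest of their groups. Its log2 fold change was 0.19 (interval −0.29 to 0.68), with a range from −0.02 to 0.34 when samples were left out in turn. In limma with the block the interval of EIF5 was 0.01 to 0.37, and the adjusted p-value was 0.372. EIF1AX, the partner of EIF1 in scanning, had a log2 fold change of −0.06. EIF1AD, which shares the fold of EIF1AX, was placed in this group, but no part in scanning is claimed for it. Its log2 fold change was 0.29, with pairs that ran both ways (0.55, −0.16, −0.02 and 0.81). The summed level of these 5 genes was 1536, 1503, 1439 and 1335 CPM in controls 1 to 4 and 1598, 1734, 1634 and 1602 CPM in hLcn-2 samples 1 to 4, and these ranges did not overlap. It was the only one of 9 role groups for which this was so, it rests mostly on EIF1, and it was picked out after its values were seen, so no test is given.

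Of the cap-binding complex eIF4F and its helpers, 5 genes lay above 0 and 5 below. EIF4E, the protein that binds the cap, had 123, 112, 110.2 and 134 CPM in controls 1 to 4 and 136, 127, 117 and 119.6 CPM in hLcn-2 samples 1 to 4. Its log2 fold change was 0.06 (interval −0.20 to 0.33), and pair 4 ran against the other 3. EIF4G1, the main scaffold, which holds eIF4E, eIF4A and eIF3 together (chr3:184314495-184335358, plus strand, 33 exons), had 433, 534, 419.7 and 456 CPM in controls 1 to 4 and 389, 467, 361 and 433 CPM in hLcn-2 samples 1 to 4. It was lower with hLcn-2 in each pair (differences of −0.16, −0.19, −0.22 and −0.08), with means of 461 ± 51.2 CPM in controls and 413 ± 46.9 CPM in hLcn-2-treated cells (SD, n = 4). The log2 fold change was −0.16 (SE 0.13, interval −0.45 to 0.13), the adjusted p-value with the block 0.380, and the exact permutation p-value 0.229. With samples left out the log2 fold change of EIF4G1 lay between −0.22 (without hLcn-2 sample 2) and −0.09 (without control 2). EIF4B, which stimulates the helicase and is a substrate of kinases below mTORC1 (chr12:53006282-53042215, plus strand, 15 exons), ran the other way and did not pass the test either. It had 71.9, 78.1, 94.7 and 70.5 CPM in controls 1 to 4 and 92.8, 85.4, 117 and 76.1 CPM in hLcn-2 samples 1 to 4. Its pairs differed by 0.36, 0.13, 0.30 and 0.11, and the log2 fold change was 0.23 (interval −0.12 to 0.58, adjusted p-value with the block 0.318). With samples left out it lay between 0.11 (without hLcn-2 sample 3) and 0.32 (without control 3). EIF4A2, a helicase subunit, had 130.0, 128, 133 and 98.1 CPM in controls 1 to 4 and 153, 137, 171 and 77.6 CPM in hLcn-2 samples 1 to 4. In both groups sample 4 was the lowest, pairs 1 to 3 were higher with hLcn-2 and pair 4 was lower (0.24, 0.10, 0.36 and −0.33), so that without hLcn-2 sample 4 the log2 fold change was 0.33 and without hLcn-2 sample 3 it was −0.04.

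EIF4A1, the other helicase subunit, had 9.86, 9.83, 10.4 and 17.1 CPM in controls 1 to 4 and 10.2, 7.75, 9.38 and 16.3 CPM in hLcn-2 samples 1 to 4. Both samples of number 4 were the highest. Its last 500 nt are shared on the same strand with the readthrough gene SENP3-EIF4A1, from which its reads cannot be told apart, and the level of EIF4A1 is therefore uncertain. Its log2 fold change was −0.12 (interval −0.69 to 0.45), and it lay between −0.31 and 0.06 when samples were left out. The other 5 members of this group ranged from −0.15 (EIF4E2, a repressive cap-binding homolog) to 0.19 (EIF4H, a cofactor of the helicase), with EIF4G2, a scaffold without an eIF4E site, at 0.11. EIF4A3, named as a helicase of the family but known as a core of the exon junction complex, had 147, 139.8, 169 and 189 CPM in controls 1 to 4 and 199, 179, 208 and 121 CPM in hLcn-2 samples 1 to 4. Pairs 1 to 3 were higher with hLcn-2 and pair 4 was lower (0.44, 0.35, 0.30 and −0.64), for a log2 fold change of 0.11.

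The 250 bases before the start of EIF4B and EIF4G1 are shown because these genes ran in opposite directions in each pair while both hold an E-box. They are from RefSeq (GRCh38.p14, plus strand), at chr12:53006206-53006455 for EIF4B and at chr3:184314356-184314605 for the first of 3 starts of EIF4G1, and both RefSeq starts lie after the first base of the GENCODE gene. Capitals mark the matches to CACGTG, the E-box bound by MYC and by TFEB, and to TGACNNNGC, the core of the antioxidant response element bound by Nrf2, which in EIF4G1 overlaps the first E-box. Neither gene was called, and a link between these sites and the mRNA levels was not tested.
EIF4B: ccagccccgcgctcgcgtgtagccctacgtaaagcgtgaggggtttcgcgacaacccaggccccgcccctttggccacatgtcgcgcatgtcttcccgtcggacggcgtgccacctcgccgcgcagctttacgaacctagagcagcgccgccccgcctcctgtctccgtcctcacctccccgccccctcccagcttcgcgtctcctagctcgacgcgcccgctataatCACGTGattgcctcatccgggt
EIF4G1: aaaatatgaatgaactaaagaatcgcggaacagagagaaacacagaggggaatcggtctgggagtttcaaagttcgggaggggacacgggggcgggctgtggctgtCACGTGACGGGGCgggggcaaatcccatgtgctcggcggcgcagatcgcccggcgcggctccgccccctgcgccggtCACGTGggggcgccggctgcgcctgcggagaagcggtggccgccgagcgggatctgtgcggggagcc

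Promoters (250 bases before to 50 after the start, 300 in all) were matched by symbol for 42 of 50 members, and both strands were searched. CACGTG was found in 11 of 42 members (26.2%) and in 7.43% of 27305 promoters. The members were EIF1B, EIF2AK2, EIF2B3, EIF3F, EIF3K, EIF4A3, EIF4B, EIF4E, EIF4G1, EIF4H and EIF5A2, whose log2 fold changes had both signs. TGACNNNGC was found in 10 of 42 members (23.8%) and in 13.6% of all promoters. TGATGNAA, the core of the amino acid response element bound by ATF4, was found in 0 of 42 members and in 3.67% of all promoters. These are matches of letters in a window, and promoters differ in base composition, which was not matched here.

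The 4E-BPs were represented by 2 genes, and EIF4EBP3 is not analysed here. EIF4EBP1, the main inhibitor of eIF4E below mTORC1 and a known target of ATF4 (chr8:38030534-38060365, plus strand, 3 exons), had 18.5, 27.5, 7.76 and 21.7 CPM in controls 1 to 4 and 17.5, 27.8, 17.3 and 28.1 CPM in hLcn-2 samples 1 to 4. Control 3 was the lowest of all samples, and pair 3 accounted for most of the difference, as the pairs differed by −0.08, 0.02, 1.06 and 0.35. Its log2 fold change was 0.34 (SE 0.33, interval −0.38 to 1.06), and without control 3 it was −0.02. With 33 to 366 reads per library and this spread, the interval ran between 0.767 and 2.08 times the control level. EIF4EBP2 had 73.5, 72.0, 85.3 and 84.9 CPM in controls 1 to 4 and 74.5, 70.01, 91.3 and 56.8 CPM in hLcn-2 samples 1 to 4. Pair 4 alone lay well below 0 (0.02, −0.04, 0.10 and −0.57), and the log2 fold change of −0.12 (interval −0.47 to 0.22) became 0.03 without pair 4 in the blocked fit. EIF4ENIF1, which carries eIF4E into the nucleus, was again lowest in pair 4 (−0.70 on the log2 scale), with a log2 fold change of −0.17.

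**Figure D3:**
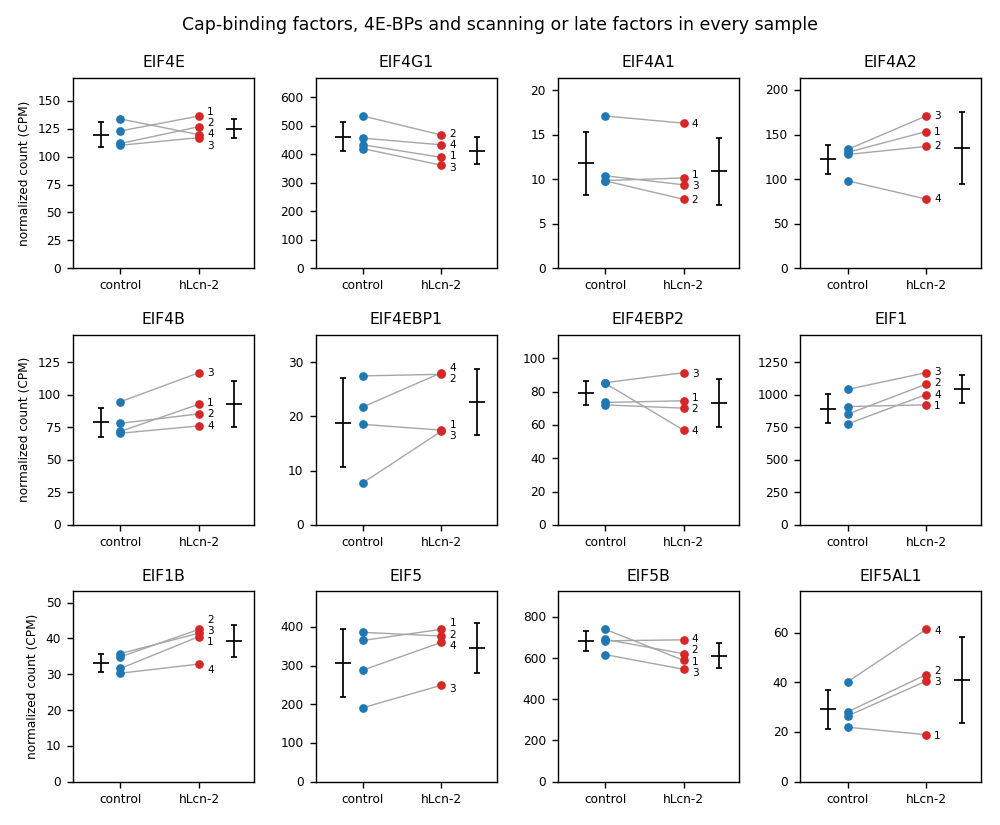
Normalized count (CPM, y axis from 0) of cap-binding factors, the 4E-BPs and the scanning and late factors with the smallest p-values in 4 control samples (blue) and 4 hLcn-2 samples (red), where lines join samples of the same number, given beside the red points, and bars show mean and SD. EIF4G1 is lower and EIF4B, EIF1 and EIF1B are higher in all 4 pairs, while control 3 stands apart in EIF4EBP1 and both samples of number 4 in EIF4A1 and EIF4A2.

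The subunits of eIF3, the large complex that joins the small ribosomal subunit to eIF4G, were measured for 13 genes. Of these, 7 lay above 0 and 6 below, with a median log2 fold change of 0.03. Apart from EIF3C and EIF3L, values ran from −0.13 (EIF3K) to 0.22 (EIF3G). EIF3G was the one subunit higher in each pair, by 0.12, 0.01, 0.21 and 0.52, at 18.4, 22.7, 18.7 and 15.1 CPM in controls 1 to 4 and 20.1, 23.0, 21.7 and 22.2 CPM in hLcn-2 samples 1 to 4. EIF3A, the largest subunit, had a log2 fold change of −0.12, and EIF3D, which can itself bind a cap, one of 0.11. EIF3J, a loosely bound subunit, had 395, 406, 231 and 288 CPM in controls 1 to 4 and 369, 386, 219.7 and 368 CPM in hLcn-2 samples 1 to 4. Both samples of number 3 were the lowest of EIF3J, and its groups had nearly the same mean. The summed level of eIF3 was 1988 ± 199.9 CPM in controls and 1957 ± 179.5 CPM in hLcn-2-treated cells.

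EIF3L and EIF3C could not be measured well. EIF3L had 0.704, 0.975, 0.529 and 1.98 CPM in controls 1 to 4 and 0.445, 0.282, 0 and 0.870 CPM in hLcn-2 samples 1 to 4. It had between 0 and 13 reads per library, passed the filter only through controls 2 and 4, and was lower with hLcn-2 in each pair (log2 fold change −0.54, interval −1.17 to 0.10). All of its last 500 nt overlap the unnamed gene ENSG00000279738 on the same strand, which lay between 1.97 and 3.75 CPM, so that the reads of EIF3L are uncertain. EIF3C had 0.563, 1.35, 0.529 and 0 CPM in controls 1 to 4 and 0.713, 1.27, 1.48 and 1.74 CPM in hLcn-2 samples 1 to 4. It had between 0 and 18 reads per library and a near-identical copy, EIF3CL, so its reads may have been dropped or split. Its log2 fold change was 0.56 (interval −0.09 to 1.20), and no direction is read from either gene.

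Of the factors that act after the start codon is found, EIF5B joins the large ribosomal subunit. It had 739, 691, 617 and 684 CPM in controls 1 to 4 and 588, 621, 545 and 688 CPM in hLcn-2 samples 1 to 4. Pairs 1 to 3 were lower with hLcn-2 and pair 4 was level (−0.33, −0.15, −0.18 and 0.01), with a log2 fold change of −0.16 (interval −0.44 to 0.11) and, with the block, an adjusted p-value of 0.411. All of its last 500 nt lie opposite to exons of REV1. EIF5AL1, an EIF5A copy in 1 exon, had 21.9, 28.1, 26.4 and 40.2 CPM in controls 1 to 4 and 18.9, 43.1, 40.5 and 61.3 CPM in hLcn-2 samples 1 to 4. Pairs 2, 3 and 4 were each higher by about the same amount and pair 1 was lower (−0.20, 0.60, 0.60 and 0.60), with a log2 fold change of 0.40 (interval −0.27 to 1.07), the largest among members with a mean of at least 10 CPM. EIF5A, the hypusine-carrying factor from which the copy derives, had 56.0, 97.8, 53.2 and 96.8 CPM in controls 1 to 4 and 48.4, 88.6, 79.0 and 76.3 CPM in hLcn-2 samples 1 to 4. Because reads may be split between these near-identical genes, they were also summed, which gave 105 ± 30.7 CPM in controls and 114 ± 32.1 CPM in hLcn-2-treated cells (log2 fold change 0.11, exact permutation p-value 0.886). The excess of EIF5AL1 alone is therefore uncertain. EIF6, which keeps the large subunit from joining too early, had a log2 fold change of 0.03 and pair differences from −0.42 to 0.40. Of the last 500 nt of EIF6, 42.2% overlap ENSG00000261582 on the same strand.

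The levels of these genes varied between replicate numbers, as those of all genes did. The range of the 4 means per replicate number (control and hLcn-2 sample together) had a median of 0.47 on the log2 scale in members and of 0.57 in all genes, and of 0.46 and 0.49 at a mean of at least 10 CPM. Number 3 was the lowest for 22 members and number 4 for 15, against 34.0% and 27.8% of all genes. The median difference of the members within the pairs was 0.02, −0.04, 0.05 and 0.06 in pairs 1 to 4, with 28, 21, 32 and 31 of 50 members above 0. Pair 4 ran against the other 3 pairs in 11 members (15.3% of all genes), among them EIF2AK1, EIF4A2, EIF4A3 and EIF4E, pair 1 in 11 (10.5%), pair 2 in 5 (9.65%) and pair 3 in 3 (12.6%). Control 4 was the library with the fewest reads, and its part in these differences was not tested.

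**Figure D4:**
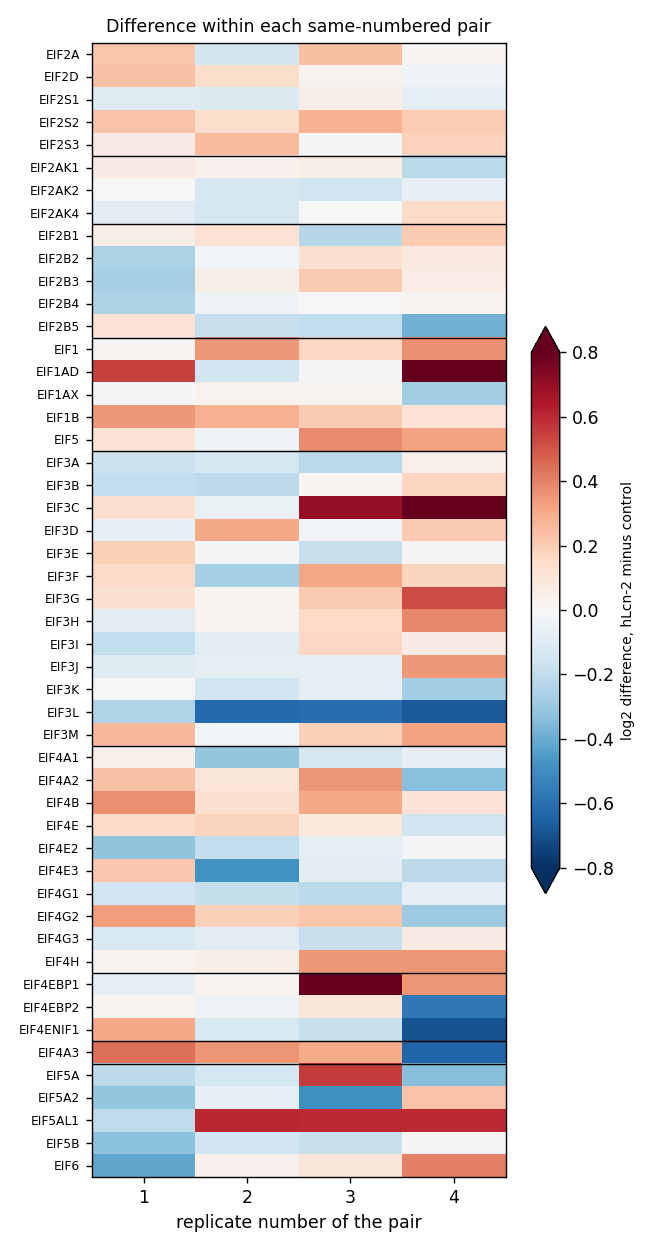
Log2 difference (hLcn-2 minus control, log2(normalized count + 1)) of each of the 50 members within each same-numbered pair, with members in rows ordered by role and pairs 1 to 4 in columns, where red is higher and blue lower with hLcn-2 and colours end at ±0.8. Rows of 1 colour, such as EIF2S2, EIF1B, EIF4B and EIF4G1, are few, and the pair 4 column holds the opposite colour in EIF4A2, EIF4A3 and EIF4G2.

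Other genes of the pathway, none of them members, were listed by role, and 64 of 66 were tested. Limma called 0 of them with or without the block. Its unadjusted p-value was under 0.05 for 2 without the block and 12 with it, against 2.28% and 12.2% of all genes. EdgeR with the block called 2, where it called 1.49% of all genes. Both were higher with hLcn-2. SESN2, an ATF4 and p53 target whose product restrains mTORC1 when leucine is short, had 86.4, 122, 86.5 and 77.7 CPM in controls 1 to 4 and 98.6, 210.5, 108 and 184 CPM in hLcn-2 samples 1 to 4. Each pair was higher, by 0.19, 0.78, 0.32 and 1.23, with a log2 fold change of 0.63 (SE 0.24). With the block, the adjusted p-value of SESN2 was 0.0150 in edgeR, 0.0820 in limma and 0.0031 in DESeq2. PABPC4, a poly(A)-binding protein that contacts eIF4G, had 131, 163, 171 and 93.5 CPM in controls 1 to 4 and 175, 219, 178 and 133 CPM in hLcn-2 samples 1 to 4. Its pairs differed by 0.42, 0.43, 0.06 and 0.50, with a log2 fold change of 0.35. With the block, the adjusted p-value of PABPC4 was 0.0445 in edgeR, 0.125 in limma and 0.0509 in DESeq2, so only edgeR called it. In both genes the groups overlapped.

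No other gene of the lists was called. All 5 genes of the eIF2 phosphatase list (PPP1R15A, PPP1R15B and the catalytic subunits) were tested, with a median log2 fold change of 0.05. PPP1R15A (GADD34), the stress-induced subunit that ends the phosphorylation of eIF2, had 74.5, 106, 71.2 and 66.5 CPM in controls 1 to 4 and 52.6, 107, 53.3 and 63.9 CPM in hLcn-2 samples 1 to 4. It was lower in pairs 1, 3 and 4 and level in pair 2, at a log2 fold change of −0.23 (interval −0.73 to 0.27). The constitutive subunit PPP1R15B had a log2 fold change of 0.06. Of mTORC1 and its inputs, 17 of 25 genes lay above 0 (median 0.05), and of the eIF4F partners 7 of 14 (median −0.01). The 6 recycling and reinitiation factors had a median of 0.00, with MCTS1, a partner of DENR in reinitiation, at 0.28 and higher in 4 of 4 pairs. The 9 elongation factors tested had a median of 0.02, and the 5 partners of the ternary complex and of GCN2, such as METAP2 and IMPACT, lay all above 0 (median 0.10). Over all lists, 40 genes lay above 0 and 24 below, 10 were higher and 5 lower in 4 of 4 pairs, and the median was 0.04. Of all genes, 50.2% lay above 0, and 9.93% were higher and 10.9% lower in 4 of 4 pairs.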

How the data were processed

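The authors made 3′ libraries with UMI (QuantSeq FWD), sequenced them on a NextSeq 500, moved the UMI with umi2index, aligned reads to GRCh38 with STAR, collapsed them by UMI, counted them with HTSeq and removed genes without counts. What they deposited is a signal per gene and sample, namely counts normalized to library size. All 134256 values (100%) were whole reads of their column within 0.01 reads. One cell with a decimal comma was read as a decimal point. Strand settings of the counting are not given in the sources used here. The study's legend gives n = 3 without naming samples, and all 8 were used.

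Log2(normalized count + 1) was tested with limma 3.58.1 (trend, two-sided, R 4.3.3) over 15593 genes (a minimum of 1 CPM in 2 or more samples), with Benjamini-Hochberg adjustment over all of them and a threshold of 0.05. The fit without the replicate block was kept as the main one because no block is stated for the study. Same-numbered samples deviated together (correlations across genes of 0.48, 0.59, 0.61 and 0.31 in pairs 1 to 4), and the numbers in the labels were taken to pair them. Exact permutation tests used 70 regroupings of all samples without regard to the pairs. EdgeR 4.0.16 and DESeq2 1.42.0 were run on the recovered reads. Other pseudocounts (0.1 and 5), filters, scalings, no trend and samples left out in turn were tried, and the sum of EIF5A and EIF5AL1 was added after seeing the data. The models were tested on simulated data, in which the changes set were larger than any estimated for the members. That test therefore does not show how well changes as small as those of the members would be found. Positions and overlaps of the last 500 nt are from GENCODE 44 (GRCh38), and promoters from RefSeq.

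Members and lists were chosen with earlier results of these data known. Named by sample are the eIF2, eIF2B and main eIF4F subunits, the kinases, the 4E-BPs and the 10 members of smallest p-value with the block, and a few more (EIF3C, EIF3G, EIF3J, EIF4A3, EIF5A, SESN2, PABPC4 and PPP1R15A) were added after their values were seen. The rows without a symbol included 11 that GENCODE names as initiation factor rows, and these were not members. One gene is not reported here, and 6 genes of the role lists are not analysed here.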

Additional observations from a re-analysis of the deposited data

Results flagged for a closer look

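In 6 of 100 groups of 4 samples (50 members, 2 groups each), 1 sample lay far from the other 3 by Dixon's ratio of its gap to the range. Chance gives about 1 in 20 such groups. EIF2B5 was low in control 3, at 25.6 CPM against 30.9 CPM for the nearest control (ratio 0.868). EIF6 was low in control 3, at 93.8 against 139 CPM (0.842). EIF3J was low in hLcn-2 sample 3, at 220 against 368 CPM (0.889). EIF3H was low in control 4, at 124 against 169 CPM (0.843). EIF4A2 was low in control 4 too, at 98.1 against 128 CPM (0.841), whereas EIF4A1 was high there, at 17.1 against 10.4 CPM (0.921). Of the 6, 3 were in samples of number 3 and 3 in samples of number 4. Control 4 held the fewest reads of all libraries.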

How the results depend on the processing

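Over 29 alternatives, 0 members were called in any. The smallest adjusted p-value of a member with all samples was 0.143 (EIF1, edgeR with the replicate block), and 0.0658 with samples left out (EIF4A3, blocked fit without pair 4). Of all genes, 0 were called without the block (355 with an unadjusted p-value under 0.05, limma), also by edgeR (324) and DESeq2 (284). Limma with the replicate block called 44 genes, edgeR with the block 233 and DESeq2 with the block 173. Limma with the block called 85 genes at a mean of at least 10 CPM, 43 with median-of-ratios scaling, 8 with a pseudocount of 0.1, 45 with a pseudocount of 5 and 0 without the trend (1567 with an unadjusted p-value under 0.05). With samples left out, between 0 and 58 genes were called, and in blocked fits 14, 3, 0 and 58 without pair 1, 2, 3 and 4. The block changed the call of no member.

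The median of the members ranged from −0.025 to 0.065 with samples left out (0.065 without control 2) and was −0.01 with plain CPM. Members whose groups did not overlap numbered between 0 and 3 when a sample was left out. Without control 2 they were EIF3C (few reads) and EIF3G, and without control 3 EIF1 and EIF2S3. Without hLcn-2 sample 1 it was EIF5AL1, and without hLcn-2 sample 3 EIF2S2. Without hLcn-2 sample 4 they were EIF1B, EIF3L (few reads) and EIF4A2. The share of all genes then was 3.80%, 6.74%, 4.05%, 4.04% and 5.10%.

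Of the 24 named members, 13 kept their sign throughout. The log2 fold change of EIF2AK1 was 0.0014 in edgeR with the block, and that of EIF2B3 was −0.020 in DESeq2 with the block, −0.025 in edgeR with the block and −0.020 with plain CPM. With 1 sample left out, EIF2AK1 ranged from −0.053 to 0.024, EIF2AK4 from −0.071 to 0.065, EIF2B2 from −0.106 to 0.051, EIF2B3 from −0.145 to 0.101 and EIF2S1 from −0.173 to 0.025. EIF4A1 ranged from −0.314 to 0.062, EIF4A2 from −0.045 to 0.331, EIF4EBP1 from −0.015 to 0.551 and EIF5 from −0.017 to 0.342. In blocked fits without a pair, the sign turned for EIF2AK1 (0.049 without pair 4), EIF2AK4 (0.0058 without pair 1 and 0.020 without pair 2), EIF2B1 (−0.019 without pair 4), EIF2B2 (0.060 without pair 1), EIF2B3 (−0.00089, −0.055 and −0.0048 without pair 2, 3 and 4), EIF4A2 (−8.1e-07 without pair 3) and EIF4EBP2 (0.026 without pair 4). The cause of these changes was not tested. EIF5AL1 had 0.170 without hLcn-2 sample 4 and 0.720 without hLcn-2 sample 1. Few reads limit EIF3L and EIF3C, which had at most 13 and 18 in any library.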
